A study of Mus musculus with 12 samples.

Results

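The genes described here are the wound-activated keratins Krt6a, Krt6b, Krt16 and Krt17 in mouse back skin treated with a hair growth agent. They were found as every probe whose gene name on the array equals 1 of these symbols, which gave 4 probes of 41174 and 4 gene names of 27373. The 4 genes were chosen by name with knowledge of their folds of MXD and N-CE over VC on these arrays, so the values below are a description of them and no test was made. MXD is minoxidil, an approved drug against hair loss, and N-CE is a cell extract of the cactus Notocactus ottonis. VC is the vehicle control, a mixture of propylene glycol, ethanol and water. All groups were male C57BL/6J mice, bought at 8 weeks of age, whose backs were shaved and then received 200 µL of MXD 3%, N-CE 10% or VC each day until sampling at 1W, 2W or 3W (weeks). RNA of the whole back skin of 6 mice was pooled per group, which gave 9 pools. Each MXD or N-CE pool shared 2-colour arrays with VC of the same week, once with the treated RNA in Cy5 and once in Cy3, so 12 arrays hold 6 comparisons. Each group is thus 1 pool with no biological replicate, and each error given is an SD over arrays of the same RNA.

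Keratins form filaments from pairs of a type II and a type I chain. In healthy skin, Krt6a and Krt6b (type II) and their type I partners Krt16 and Krt17 are made mainly in the hair follicle, in the companion layer and the outer root sheath, and in other appendages and the nail bed. After wounding, irritation or inflammation, keratinocytes between the follicles switch them on as well, and for this reason they are known as stress or barrier alarm keratins. Krt17 is also a keratin of the growing follicle itself. In RNA of whole skin, fewer cells of a type and less RNA per cell cannot be told apart.

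The 4 probes show what each value stands for. All are 60 bases long, lie on the minus strand of mm9 and have 1 spot per array. The Krt6a probe lies at chr15:101520862-101520921, and its first 24 bases are shown because they hold the end of the reading frame, with the stop codon in capitals.
Krt6a: agcaagaagagctacaggcagTGA
The Krt6b probe lies at chr15:101509450-101509509 and is shown whole, because the array annotation lists it for RefSeq transcripts of both Krt6b and Krt6a. Its value can therefore hold RNA of both genes.
Krt6b: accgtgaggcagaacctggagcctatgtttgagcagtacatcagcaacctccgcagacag
The Krt16 probe at chr11:100107405-100107464 and the Krt17 probe at chr11:100117584-100117643 are each shown by the 30 bases around a polyadenylation hexamer, in capitals, searched as AATAAA or ATTAAA.
Krt16: tggtggtaggctAATAAAgctttttggttg
Krt17: atgcttgagaccATTAAAgcttgctgacct
The longest run shared by any pair of these probes is 8 bases, between Krt16 and Krt17. Probes were compared with each other and not with transcripts, so this does not show whether a probe binds RNA of another gene. The Krt6a and Krt6b probes lie 11.4 kb apart and the Krt16 and Krt17 probes 10.2 kb apart, with 0 protein-coding genes between the genes of either pair.

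All 96 readings of the 4 probes, 1 per dye on each array, were well above background, 0 were saturated and 0 were marked as outliers. Signals were 4.37 to 1830 times the local background. The tissue label was checked against 10 markers of keratinocytes and dermis, and each of them was above background on at least 1 array. The agreement of the 2 arrays of a dye swap over all probes above background was r = 0.57 for MXD 1W, r = 0.71 for MXD 2W and r = 0.26 for MXD 3W. For N-CE the values were 0.60, -0.17 and 0.35 in the same order of weeks. The arrays of N-CE 2W thus opposed each other more than they agreed, which limits every value of that comparison.

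MXD 1W differed from VC in Krt16 and Krt6b. Krt16, the type I partner of Krt6a and Krt6b in activated epidermis, had a processed signal of 22700 in MXD and 3000 in VC on array 1, and of 24800 and 3990 on array 2. The log2 fold was 2.78 ± 0.20 (SD, n = 2 arrays), or 6.86-fold. Krt6b had signals of 2300 in MXD and 562 in VC on array 1, and of 2320 and 766 on array 2. The log2 fold was 1.81 ± 0.31, or 3.52-fold.

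Krt6a, a type II keratin of the companion layer and outer root sheath, gave signals of 6300 in MXD and 3660 in VC on array 1, and of 5530 and 4240 on array 2. Its log2 fold was 0.58 ± 0.28, close to the threshold of 1.5-fold. Krt17 stood at 89000 against 82400 on array 1 and at 87100 against 89900 on array 2, a log2 fold of 0.03 ± 0.11. The arrays put Krt17 on opposite sides of VC, while its chromosomal neighbour Krt16 was among the highest folds.

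A probe was called when the error model of the scanner software gave P under 0.01 on each of its 2 arrays, both with the same sign, with a mean fold above 1.5 or below 0.75. This P describes the spot, not the mice. In MXD 1W, 2 of the 4 keratins, Krt16 and Krt6b, were called higher, where 0.685% of all probes were called higher and 0.765% lower. With dim probes left out these shares were 1.06% and 1.24%. Krt16 ranked 15 and Krt6b 33 by fold among the 282 probes called higher. Krt6a was not called, since P was 0.00028 on array 1 and 0.064 on array 2.

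In MXD 2W the 4 keratins had folds close to each other. Krt6b gave signals of 3020 in MXD and 1340 in VC on array 1, and of 3120 and 1430 on array 2, for a log2 fold of 1.15 ± 0.04. Krt16 gave 15600 against 8590 on array 1 and 12200 against 7200 on array 2, for a log2 fold of 0.81 ± 0.07. These 2 genes had the closest agreement between arrays. Krt17 read 196000 against 82000 on array 1 and 161000 against 105000 on array 2, with a log2 fold of 0.94 ± 0.46. Krt6a read 16400 against 6720 on array 1 and 11000 against 8120 on array 2, with a log2 fold of 0.86 ± 0.60. For both genes the size of the fold differed between arrays.

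Krt6b, Krt17 and Krt16 were called higher in MXD 2W, which is 3 of 4, where 4.04% of all probes were called higher and 5.82% lower. Without dim probes the shares were 6.51% and 9.31%. Krt6a missed the call, since the error model gave 0.035 on array 2. The ranks by fold were lower than at 1W, with Krt6b at 467, Krt17 at 895 and Krt16 at 1204 of the 1661 probes called higher. Krt17, at the level of VC in MXD 1W, had the second highest log2 fold of the 4 here.

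In MXD 3W none of the 4 keratins was called, where 0.144% of probes were called higher and 0.161% lower. Krt16 had log2 folds of -0.43 and -0.66 on the 2 arrays, with a mean of -0.54 ± 0.17, and Krt6a and Krt6b had means of -0.29 ± 0.24 and -0.25 ± 0.21. For these 3 genes both arrays lay below VC. Krt17 had log2 folds of 0.12 and -0.08, with a mean of 0.02 ± 0.14.

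In N-CE 1W none of the 4 was called, where 0.292% of probes were called higher and 1.49% lower. Krt17 read 60800 in N-CE and 87100 in VC on array 1, and 50800 and 81100 on array 2, for a log2 fold of -0.60 ± 0.11. Krt6a had log2 folds of -0.29 and -0.76, with a mean of -0.53 ± 0.33, and Krt6b of -0.33 and -0.69, with a mean of -0.51 ± 0.26. These 3 keratins were below VC on both arrays and past the lower fold threshold, but P on array 1 was 0.013 for Krt17, 0.16 for Krt6a and 0.11 for Krt6b. Krt16 was the exception, with log2 folds of 0.31 and 0.06 and a mean of 0.19 ± 0.18.

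In N-CE 2W and N-CE 3W none of the 4 was called either. Of all probes, 0.0682% were called higher and 0.0511% lower in N-CE 2W. In N-CE 3W the shares were 0.151% and 0.139%. The N-CE 2W mean log2 folds were 0.17 ± 0.65 for Krt6a, 0.45 ± 0.34 for Krt6b, 0.24 ± 0.16 for Krt16 and 0.32 ± 0.48 for Krt17. Krt6a was 0.63 on array 1 and -0.29 on array 2, so its arrays opposed each other, and Krt17 was 0.66 and -0.02. At 3W the 4 means ranged from -0.10 for Krt16 to 0.18 for Krt6b.

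The sign of the fold can be counted over both arrays without a call. In MXD 1W, 3 of 4 keratins were above VC on both arrays and 0 below, against 32.6% and 34.1% of all probes above background. In MXD 2W it was 4 above and 0 below, against 39.3% and 32.2%, and in MXD 3W 0 above and 3 below, against 28.2% and 27.1%. In N-CE 1W, 1 was above and 3 below, against 35.5% and 27.3% of all probes. In N-CE 2W, 2 were above and 0 below, against 19.9% and 20.0%. In N-CE 3W, 3 were above and 0 below, against 29.2% and 30.6%, but Krt6a, 1 of the 3, was at 0.00 on array 2.

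**Figure D1:**
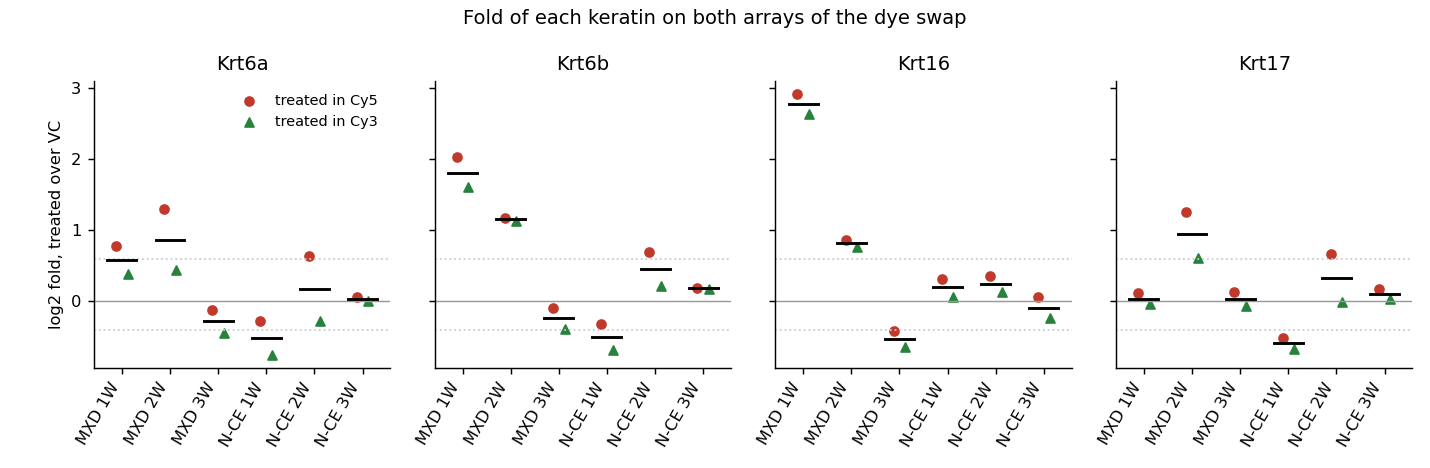
Log2 fold of treated over VC (vertical axis) for Krt6a, Krt6b, Krt16 and Krt17 in the 6 comparisons (horizontal axis). Circles are the array with treated RNA in Cy5, triangles the array with treated RNA in Cy3, black lines their mean, and dotted lines the folds of 1.5 and 0.75. Krt16 and Krt6b in MXD 1W stand highest, and the circle lies above the triangle in every pair.

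The dye affected all 4 keratins in the same direction. In 24 of 24 combinations of gene and comparison the log2 fold was higher with the treated RNA in Cy5, by 0.02 to 0.92 with a median of 0.29. Over all probes above background, the median of this gap was between -0.02 and 0.00 in the 6 comparisons. Dye normalization centres that median near 0, so it does not show how unusual the gap is. The gap was not particular to these 4 genes. The basal keratins Krt14 and Krt15 were also higher with the treated RNA in Cy5 in all 6 comparisons, whereas the suprabasal keratin Krt1 was not. The mean over a dye swap holds both orientations equally. The largest gap was that of Krt6a in N-CE 2W, and it is larger than the mean fold there.

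MXD and N-CE of a week were compared through their shared VC pool, since they were not hybridized together. Differences of log2 folds were taken between arrays of the same dye orientation and are given as MXD minus N-CE, with the SD over both orientations. At 1W the difference was 2.59 ± 0.02 for Krt16, 2.33 ± 0.05 for Krt6b, 1.11 ± 0.05 for Krt6a and 0.63 ± 0.00 for Krt17. Matching the dyes takes the dye gap out of this SD. The error from all 4 arrays of the week, which keeps that gap, was 0.27, 0.40, 0.44 and 0.16 in the same order. For all 4 genes both MXD arrays lay above both N-CE arrays, as for 24.4% of all probes above background. At 2W the differences were between 0.57 ± 0.09 for Krt16 and 0.70 ± 0.30 for Krt6b. The error from 4 arrays was 0.18 for Krt16, 0.34 for Krt6b, 0.89 for Krt6a and 0.66 for Krt17. Both MXD arrays lay above both N-CE arrays for Krt6b and Krt16 but not for Krt6a and Krt17, against 24.7% of all probes above background. At 3W the differences were -0.32 ± 0.20 for Krt6a, -0.42 ± 0.20 for Krt6b, -0.44 ± 0.05 for Krt16 and -0.07 ± 0.04 for Krt17. Their errors from 4 arrays were 0.24, 0.21, 0.27 and 0.18.

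**Figure D2:**
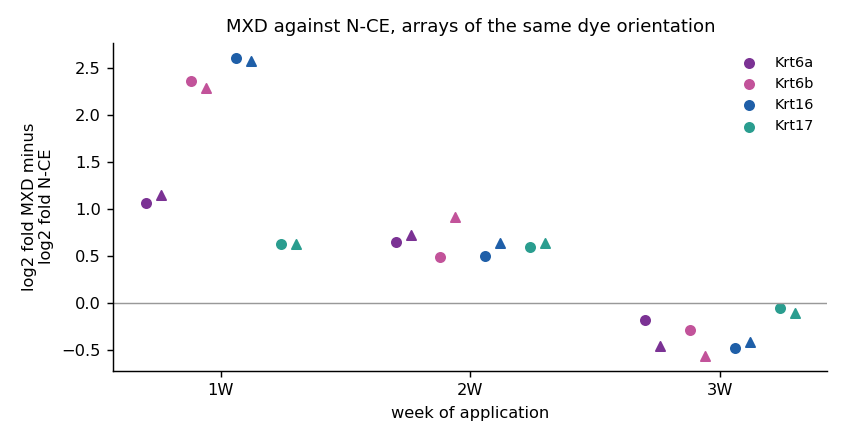
Log2 fold in MXD minus log2 fold in N-CE (vertical axis) for each keratin at 1W, 2W and 3W. Circles are from the arrays with treated RNA in Cy5 and triangles from those in Cy3. The points are highest at 1W for Krt16 and Krt6b and lie below 0 at 3W.

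Levels were read per pool on the log2 scale of normalized intensity, and are compared only within a probe. The Krt16 level in VC of the first week was 11.20 ± 0.15, followed by 11.89 ± 0.09 at 2W and 12.62 ± 0.10 at 3W (SD, n = 4 arrays). Krt6b in VC was 8.96 ± 0.15, 9.44 ± 0.27 and 10.03 ± 0.14, and Krt6a was 11.24 ± 0.12, 11.55 ± 0.47 and 12.56 ± 0.17. For these 3 genes the VC level was higher at each later week, although Krt6a at 1W and 2W lay within its spread, whereas Krt17 in VC was 15.59 ± 0.12, 15.39 ± 0.37 and 15.72 ± 0.18. The 4 arrays of a week are 1 slide, so week and slide cannot be told apart.

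In MXD, Krt16 went the other way, with 14.01 ± 0.06 in MXD 1W, 12.73 ± 0.00 in MXD 2W and 12.17 ± 0.14 in MXD 3W. MXD 1W held the highest Krt16 level of the 9 pools, 1.28 above the next, MXD 2W, a gap larger than the SD of 0.06. The spread of each pool is over arrays of 1 slide. It does not measure the difference between slides that pools of different weeks also hold. Krt6b in MXD was 10.65 ± 0.00, 10.60 ± 0.26 and 9.84 ± 0.15, and MXD 1W and MXD 2W, the highest 2 pools, did not differ beyond their spread. Krt6a in MXD was 11.86 ± 0.08, 12.59 ± 0.15 and 12.36 ± 0.12. The highest Krt6a pools, MXD 2W, VC 3W and N-CE 3W, lay within their spread of each other. Krt17 was 15.61 ± 0.15, 16.17 ± 0.18 and 15.60 ± 0.10 in MXD, and no neighbours in its order of pools differed beyond their spread.

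In N-CE, Krt16 was 11.27 ± 0.07, 12.09 ± 0.03 and 12.45 ± 0.10 at the 3 weeks, and Krt6b was 8.50 ± 0.07, 9.71 ± 0.07 and 10.14 ± 0.21. Krt6a was 10.66 ± 0.24, 11.51 ± 0.07 and 12.52 ± 0.20, and Krt17 was 15.09 ± 0.20, 15.85 ± 0.43 and 15.96 ± 0.21. N-CE 1W was the lowest of the 9 pools for Krt6a, Krt6b and Krt17, of which only VC 1W and MXD 1W lay on its slide. The same VC RNA read on the MXD arrays and on the N-CE arrays differed by up to 0.41, for Krt6a at 2W, and by -0.32 for Krt17 at 2W.

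**Figure D3:**
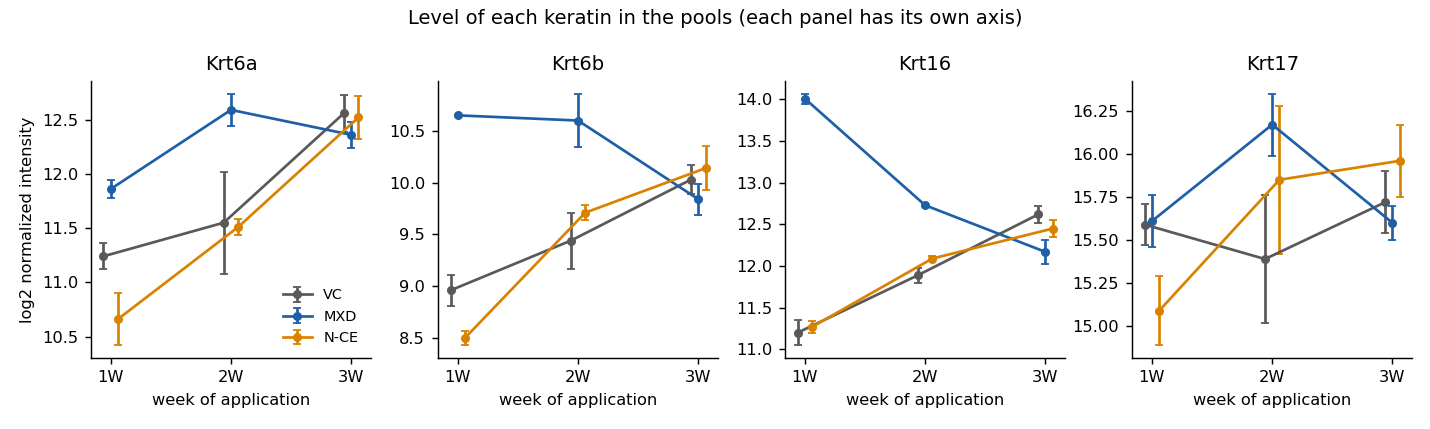
Log2 normalized intensity (vertical axis, its own range in each panel) of each keratin at 1W, 2W and 3W in VC (grey), MXD (blue) and N-CE (orange). Bars are the SD over 4 arrays for VC and 2 arrays for MXD and N-CE. VC is higher at later weeks for Krt6a, Krt6b and Krt16, and MXD is highest at 1W for Krt16.

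The 4 keratins were set beside the other keratins of the skin. The epidermal keratins listed were Krt5, Krt14 and Krt15 of the basal layer and Krt1, Krt10 and Krt2 of the layers above it. In MXD 1W, 0 of 5 measured were called and their median log2 fold was -0.20, against 1.20 for the 4 wound-activated keratins and -0.01 for all genes. In MXD 2W, 3 of 6 were called lower, with a median of -0.93 against 0.90 for the 4 keratins. Krt2, a keratin of the upper spinous and granular layers, had a log2 fold of -1.93 ± 0.30 and Krt10, a keratin of the suprabasal layers, of -1.43 ± 0.39. The third was Krt1, the partner of Krt10, with -1.30 ± 0.93. The basal keratins were not called, with Krt5 at 0.09 ± 0.46, Krt14 at -0.05 ± 0.39 and Krt15 at -0.56 ± 0.68. In N-CE, Krt2 was called higher at 1W, with 0.71 ± 0.11, and lower at 2W, with -1.34 ± 0.12, and no other measured keratin of this list was called. Krt10 had no value in MXD 1W, MXD 3W, N-CE 2W and N-CE 3W, and Krt5 had none in N-CE 1W, because their spots were marked as outliers.

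The keratins of the inner root sheath and companion layer had a median log2 fold of 0.44 in MXD 1W with 0 of 6 called, and of 1.23 in MXD 2W with 5 of 5 measured called higher. Krt25, of the inner root sheath, was at 1.42 ± 0.21 and Krt75, of the companion layer, at 1.24 ± 0.12 in MXD 2W. In N-CE 1W all 6 of this list were called lower, with a median of -2.76, and Krt26 was at -2.86 ± 0.07 and Krt71 at -2.82 ± 0.05. Hair shaft keratins were called higher in 4 of 12 in MXD 1W and 12 of 12 in MXD 2W, and lower in 11 of 12 in N-CE 1W, with medians of 0.61, 1.34 and -2.30. Krt33a, a shaft keratin, was at 0.94 ± 0.07 in MXD 1W and -2.80 ± 0.19 in N-CE 1W. In MXD 3W, N-CE 2W and N-CE 3W, 0 keratins of these follicle lists were called.

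Set beside these lists, Krt6a, Krt6b and Krt17 had positive folds in MXD 2W and negative folds in N-CE 1W. So did the follicle keratins with values in both, except Krt84, which was at 0.05 in N-CE 1W. Krt26 had no value in MXD 2W. Of the 3 wound-activated keratins, Krt6a was not called in either comparison. Krt6b and Krt17 were called in MXD 2W and not in N-CE 1W. Krt16 and Krt6b in MXD 1W, at 2.78 and 1.81, lay above the highest follicle keratin of these 2 lists, at 0.94. Markers of dividing cells moved with the same comparisons, with 7 of 7 called higher in MXD 2W, 7 of 7 called lower in N-CE 1W and 0 of 7 called in MXD 1W. In MXD 1W, where none was called, their log2 folds were 0.27 to 0.57. Their summed signal was 1.42-fold in MXD 1W, 1.90-fold in MXD 2W and 1.36-fold in MXD 3W. In N-CE it was 0.437-fold at 1W, 1.28-fold at 2W and 1.30-fold at 3W. Their part in the keratin values was not tested.

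**Figure D4:**
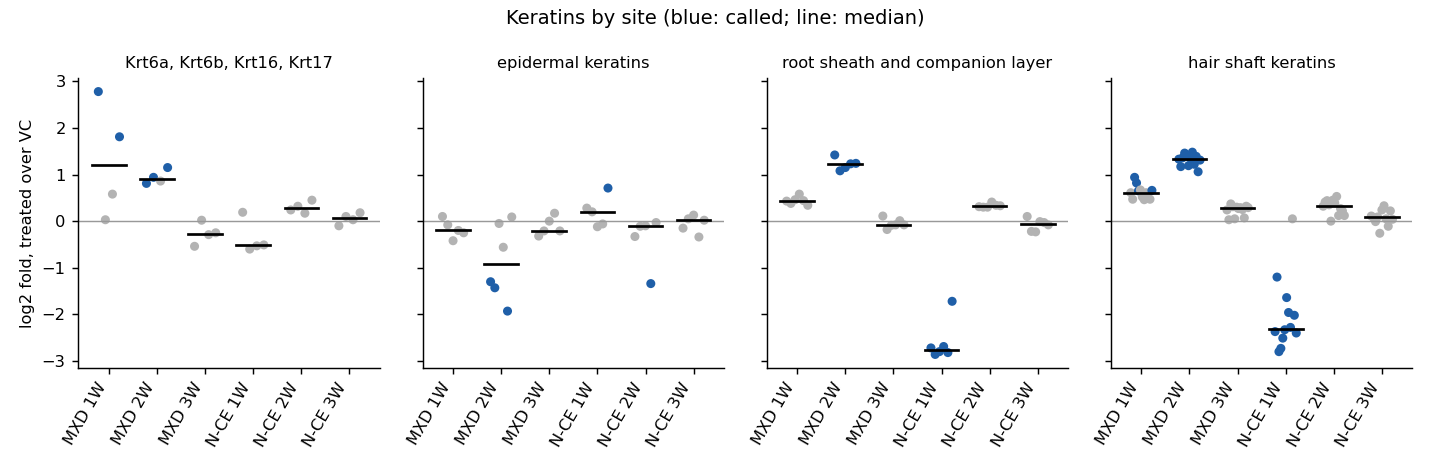
Log2 fold of treated over VC (vertical axis) for keratins of 4 groups in the 6 comparisons. Each point is a gene (blue where called, grey where not) and each line is the median. The wound-activated keratins spread widely in MXD 1W, and the follicle keratins lie far below 0 in N-CE 1W.

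The genes that keratinocytes are known to raise along with these keratins under stress are S100 proteins, small proline-rich proteins of the cornified envelope, defensins and secreted inhibitors. In MXD 1W, 10 of 18 measured were called higher and 0 lower, with a median log2 fold of 1.03. Sprr2d, a small proline-rich protein, was at 3.11 ± 0.25. Sprr2f, another of this family, was below background in VC and at least 1.46-fold higher in MXD. The Sprr2 genes are close copies of each other, so their probes may share RNA. In MXD 2W, 6 of 18 were called higher and 2 lower, with a median of 0.46. The highest of the 6 were Sprr2f at 1.40 ± 0.22 and Sprr2h at 1.33 ± 0.16. The 2 called lower had the largest absolute folds, Sprr2d at -1.56 ± 0.14 and Defb14, a beta-defensin, at -1.48 ± 0.23. Sprr2d was thus called higher at 1W and lower at 2W.

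In MXD 3W, 1 of 18 stress genes was called lower, the protease inhibitor Slpi at -0.78 ± 0.17. In N-CE 1W, 1 of 17 was called higher, S100a9 at 1.09 ± 0.03, and 2 were called lower, Sprr1a at -0.92 ± 0.04 and Sprr2h at -0.83 ± 0.19. In N-CE 2W and N-CE 3W, 0 were called. The medians in these 4 comparisons were between -0.15 and 0.19.

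S100a8 and S100a9, the paired subunits of calprotectin, are made by activated keratinocytes and also by neutrophils. In MXD 1W, S100a8 was at 2.89 on both arrays and S100a9 at 2.51 ± 0.14. Of 11 neutrophil markers, 9 were measured in MXD 1W and 4 were called higher, S100a8, S100a9, the chemokine receptor Cxcr2 and the growth factor receptor Csf3r. The summed signal of all 11 was 15300 and 21200 in MXD against 2940 and 3670 in VC, or 5.48-fold. S100a8 and S100a9 made up nearly all of this sum, and without them, a choice made after the values were seen, the other 9 summed to 549 and 591 in MXD against 419 and 488 in VC, or 1.26-fold. Of those not called, Retnlg was at 0.55, Lcn2 at -0.05 and Mpo at -0.12 in MXD 1W, and Camp and Ltf, both below background in MXD, were at 0.32 and -0.62. Cxcr2 was at least 1.26-fold higher, with VC below background, and Csf3r was at 1.04 ± 0.23. The granule genes Elane and Ngp were not well above background in any comparison, but the sums hold them and the other dim genes too. The sum of all 11 was 1.14-fold in MXD 2W and 1.81-fold in N-CE 1W. Without S100a8 and S100a9 these were 0.892-fold and 1.16-fold. The part of neutrophil RNA in the values of Krt16 and Krt6b was not tested.

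The signals that activate keratinocytes include interleukin 1 and 36, interleukin 6 family, interleukin 17 and 20 families and ligands of the EGF receptor. In MXD 1W, 1 of 14 measured ligands was called higher, Il1f6, now named interleukin 36 alpha, at 0.89 ± 0.22, and 0 lower. In MXD 2W, 2 of 14 were called higher, the EGF receptor ligands Areg at 1.54 ± 0.43 and Tgfa at 0.90 ± 0.09, and 5 were called lower. The lowest were Il1f9, interleukin 36 gamma, at -1.63 ± 0.07 and Btc, betacellulin, another EGF receptor ligand, at -1.59 ± 0.39. Il1f6 itself was at -1.17 ± 0.53 in MXD 2W. There, 4.04% of all probes were called higher and 5.82% lower. In N-CE 1W, Areg was called lower at -0.96 ± 0.05, and in the remaining comparisons 0 ligands were called. Il17a, Il19, Il20 and Il22 were not measured in any comparison.

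Of 13 receptors of these ligands, 0 were called in MXD 1W and 2 were called lower in MXD 2W, the interleukin 20 receptor chains Il20ra at -1.44 ± 0.15 and Il20rb at -0.95 ± 0.21. In the other 4 comparisons 0 were called. For MXD 2W, 5.82% of all probes were called lower, or 9.31% with dim probes left out. Of 18 transcription factors known to act on these keratin genes, 0 were called in MXD 1W. In MXD 2W, 3 were called higher, Runx1 at 1.18 ± 0.37, Gli2, a mediator of hedgehog signalling, at 0.97 ± 0.18, and Junb, of the AP-1 family, at 0.65 ± 0.11. In N-CE 1W the AP-1 genes Fos and Fosb were called higher, at 1.41 ± 0.06 and 0.82 ± 0.26, and Gli2 lower at -0.76 ± 0.06. Gli1, a hedgehog target, was below background in N-CE 1W, where VC was at least 1.22-fold higher. Fos was called higher in N-CE 2W too, at 1.66 ± 0.04, and Fosb at 0.97 ± 0.41. In MXD 3W and N-CE 3W, 0 of the 18 were called.

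**Figure D5:**
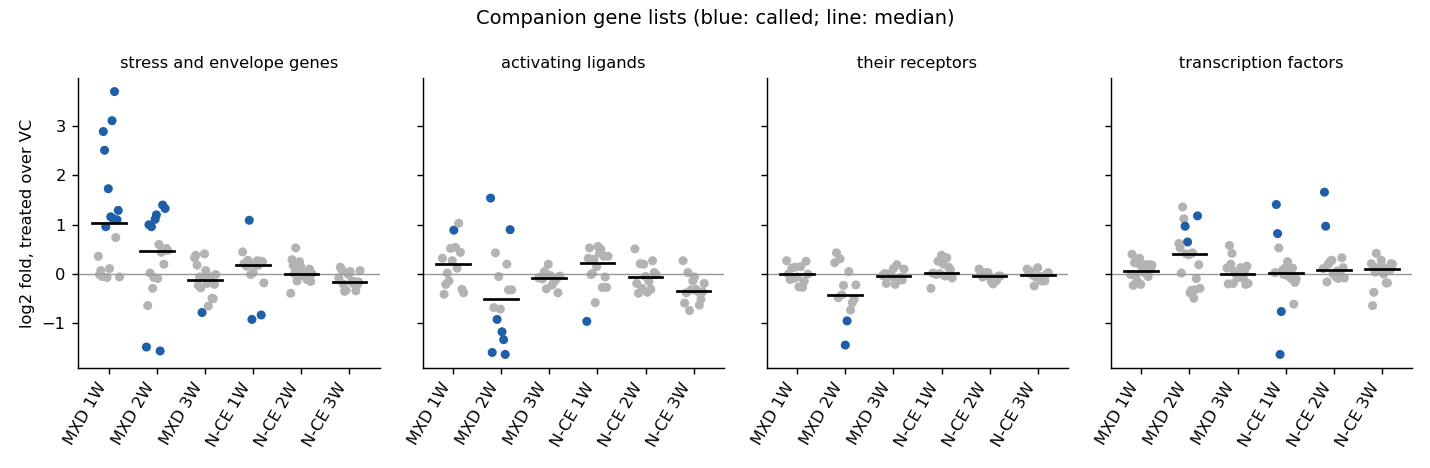
Log2 fold of treated over VC (vertical axis) for 4 lists of genes known to act with the wound-activated keratins in the 6 comparisons. Each point is a gene (blue where called, grey where not) and each line is the median. Stress and envelope genes are highest in MXD 1W, and ligands and their receptors lie lowest in MXD 2W. Genes below background in 1 group, among them Sprr2f in MXD 1W and Gli1 in N-CE 1W, are drawn at their measured fold, for which the data give at most a bound.

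The 4 keratins did not share 1 pattern over the 6 comparisons. Likeness was measured as the root mean square difference of log2 folds, in which 0 means equal folds. Among the 6 pairs it was lowest for Krt6a and Krt17, at 0.27, and highest for Krt16 and Krt17, at 1.20. Krt6a and Krt6b differed by 0.53, mostly from MXD 1W, where Krt6b was 1.23 higher. The Krt6b probe can hold RNA of both genes, so this is a contrast of probes.

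For each keratin that was called at least once, the 3 most like genes were taken from 2873 genes called somewhere and above background in all comparisons. Krt16 was closest to S100a8, at 0.25, and then to Lce3f, a late cornified envelope gene, at 0.35 and Scgb2b27, a secretoglobin, at 0.52. S100a8 and Krt16 had log2 folds of 2.89 and 2.78 in MXD 1W and 0.96 and 0.81 in MXD 2W. Krt6b was closest to an unnamed transcript listed as NAP033385-1, at 0.35, to Sprr1b at 0.38 and to Krt18, a keratin of simple epithelia, at 0.39. Krt17 was closest to Thsd1 at 0.039, Gtf2ird1 at 0.057 and Wwc1 at 0.061, none of them a keratin. The 6 comparisons share their VC pools in pairs, so these values describe the folds and carry no p.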

How the data were processed

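RNA of 12 arrays (Agilent mouse 4x44K) was measured. The authors deposited the Feature Extraction output of each array, whose version is 12.0.3.1 per the file headers and 11.0.1.1 in the submitters' processing notes, and a matrix of log10 ratios. The deposited log10 ratio is Cy5 over Cy3 after background subtraction and LOWESS dye normalization by the authors. The deposited p-value comes from the error model of that software. The authors also deposited each channel's intensity. Probe positions are on mm9. The matrix equals the log10 ratio of deposited processed intensities within 0.0001.

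Each ratio was expressed as treated over VC on the log2 scale. Spots marked as outliers were left out, spots of a probe were averaged, and the fold is the geometric mean over the dye swap, with its SD over 2 arrays. The dyes in the labels gave the direction. No test within a week is possible, as each group is 1 pool, and none over the weeks was made for genes chosen on these folds. Levels came from limma 3.58.1 (normexp with offset 50, loess, Aquantile) in R 4.3.3. Other steps used Python 3.11.15, numpy 2.4.6, pandas 2.3.3 and matplotlib 3.10.9. The number of arrays limits the precision.

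A gene was represented by its probe of highest mean signal, and was measured in a comparison where a channel of it was well above background. A gene below background in 1 group is given as "at least", the bright group's mean against the lowest signal above background. The 4 keratins and the lists were chosen with earlier results of these data known. Named genes are the 4 keratins, the 2 called genes of each list with the largest fold, and the 3 genes most like each called keratin. Further names were chosen after their values were seen. S100a8, S100a9 and Lcn2 stand in both the stress and neutrophil lists. Marker lists for macrophages, skeletal muscle, adipocytes and melanocytes were also measured, with median log2 folds of 0.30, -0.60, -0.32 and 0.74 in MXD 1W. In MXD 2W these medians were -0.77, -1.46, -0.68 and 1.27, and in N-CE 1W 0.23, -0.14, 0.31 and -1.80. Their part in the keratin values was not tested. Alternatives were other thresholds, normexp with loess, the arithmetic mean, other handling of dim and marked spots, the matrix and each array alone.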

Additional observations from a re-analysis of the deposited data

Results flagged for a closer look

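Both arrays of a comparison lay on 1 side of VC and both arrays of another lay on the opposite side in 14 of the 36 combinations of a keratin with a pair of comparisons, or 38.9%. Over the 21402 probes above background in all comparisons the share was 16.2%. Of the 14, 2 rest on Krt6a in N-CE 3W, which was at 0.00 on array 2. No difference was tested, since each group is 1 pool, and the dye gap of these probes is part of each array's value.

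Between treatments, the log2 fold in MXD minus that in N-CE at 1W was 1.11 for Krt6a and 2.33 for Krt6b. At 3W the same difference was -0.32 for Krt6a and -0.42 for Krt6b, where the N-CE folds themselves were near 0.

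Between weeks of MXD, the log2 fold at 1W minus that at 3W was 0.88 for Krt6a, 2.06 for Krt6b and 3.32 for Krt16. The fold at 2W minus that at 3W was 1.16 for Krt6a, 1.40 for Krt6b and 1.35 for Krt16. The VC level of these 3 genes was higher at 3W, and week and slide cannot be told apart.

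Between weeks of N-CE, Krt6b at 1W minus 2W was -0.96. At 1W minus 3W the difference was -0.55 for Krt6a, -0.69 for Krt6b and -0.70 for Krt17.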

How the results depend on the processing

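With no P threshold, 1 keratin was called in MXD 3W (Krt16, lower) and 3 in N-CE 1W (Krt6a, Krt6b and Krt17, lower), against 0 in both, since P was over 0.01 on 1 array. Under this setting 2.85% and 6.82% of all probes were called lower in these comparisons. With 1 array of the dye swap alone, the count called was 2 to 3 in MXD 1W, 3 to 4 in MXD 2W, 0 to 1 in MXD 3W, 0 to 3 in N-CE 1W, 0 to 3 in N-CE 2W and 0 in N-CE 3W. The 1 in MXD 3W and the 3 in N-CE 1W came without array 1, and the 3 in N-CE 2W without array 2. The other settings moved no count of keratins by over 1.5 times, though P under 0.001 left 2 in MXD 2W, without Krt17. No log2 fold of a called keratin changed sign. With 1 array alone, 5 folds that were not called did, Krt17 in MXD 1W (-0.05), MXD 3W (-0.08) and N-CE 2W (-0.02), Krt6a in N-CE 2W (-0.29) and Krt16 in N-CE 3W (0.05). Of 144 log2 folds under settings that kept both arrays, 142 moved by less than their SD over arrays, and the other 2 were Krt6b under normexp with loess in MXD 2W (1.02) and N-CE 3W (0.16). The largest shift, 0.14, was Krt6b in MXD 1W (1.67 under normexp). Of 60 MXD minus N-CE differences, 2 moved by more than their SD over both dye orientations, both at 1W under normexp, Krt6b to 2.12 and Krt17 to 0.61. Of 36 levels, 10 moved by more than their SD on the scale of the 75th percentile. The share of all probes called moved by over 1.5 times in 40 of 72 cases. Under normexp, MXD 1W gave Sprr2f 0.62, Cxcr2 0.36 and Csf3r 0.42, MXD 2W gave Sprr2d -0.93 and Il1f6 -0.51, and N-CE 1W gave Krt26 -2.27 and Gli1 -0.29.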
